A study of Homo sapiens with 8 samples.

Results

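The comparison described here is the effect of TGF-β1 in cells that also receive calcitriol. The 2 arrays of PC-3 cells given calcitriol (10 nM) together with TGF-β1 (5 ng/mL) for 24 h were set against the 2 arrays of cells given calcitriol (10 nM) alone for the same time, so both groups carry calcitriol and differ by TGF-β1. These are 4 of the 8 arrays of the series. The other 4 come from cells given TGF-β1 (5 ng/mL) alone for 24 h and from untreated cells, with 2 arrays each. For the untreated cells the labels state neither a vehicle nor a time. PC-3 is an established human prostate cancer cell line, grown here as a monolayer in medium with 5% fetal bovine serum, and each pair of arrays is labelled as independent experiments. RNA was hybridised to Clariom D arrays, which measure coding and non-coding transcripts, and each value is a deposited log2 expression level. Of 138745 features on the array, 36176 carry exactly 1 gene symbol, and 23854 of their 33616 genes passed the filter on low values and were tested.

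TGF-β1 is a secreted growth factor that is held in a latent complex and released in part by integrins. It binds a pair of serine/threonine kinase receptors, TGFBR2 and TGFBR1, which phosphorylate SMAD2 and SMAD3. These join SMAD4, enter the nucleus and regulate target genes, among them genes that switch the pathway off again. In prostate epithelium the pathway is known for growth arrest, and in advanced carcinoma for matrix remodelling and changes of cell shape. Calcitriol, the active form of vitamin D, acts through the nuclear receptor VDR and is known to restrain the growth of prostate cells and to lower prostaglandin signalling.

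The marker lists gave only a weak check of the label. Of 10 genes listed as expressed in PC-3 cells, 9 lay above background in both groups, beside 86.8% of all protein-coding genes tested with calcitriol plus TGF-β1 and 90.3% with calcitriol, background being the 95th percentile of an array's negative control features. KRT8, a simple epithelial keratin, stood at 11.04 and 11.12 with calcitriol plus TGF-β1 and at 11.30 and 11.18 with calcitriol. Among 6 genes listed as absent or low in PC-3 cells, KLK3 was tested, at 6.85 and 6.77 with calcitriol plus TGF-β1 and at 6.73 and 6.97 with calcitriol. It lay above background on all 4 arrays, which goes against its place on that list. Of the tested markers of other lineages (5 neuroendocrine, 8 fibroblast, 6 leukocyte and 5 endothelial), 0 passed in limma, with 1 leukocyte and 1 endothelial marker at an unadjusted p under 0.05. Such a p was reached by 15.7% of all protein-coding genes tested. Above background with calcitriol plus TGF-β1 lay 2 neuroendocrine, 4 fibroblast, 3 leukocyte and 4 endothelial markers, against 2, 5, 4 and 5 in the same order with calcitriol, while the leukocyte marker PTPRC lay below it on all 4 arrays. Over the 23854 genes tested, with 1 feature per gene, r was 0.988 to 0.991 between replicate arrays and 0.977 to 0.990 between groups. The gap between positive and negative control features was 6.77 and 6.70 with calcitriol plus TGF-β1, against 6.93 and 7.02 with calcitriol (log2), so the 2 groups did not overlap in this measure of signal over background. Its part in the differences below was not tested. In such whole-culture RNA, more transcript per cell and more cells expressing a gene cannot be told apart.

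TGF-β1 changed 140 of 23854 genes in calcitriol-treated cells (0.587%), 94 higher (0.394%) and 46 lower (0.193%), at an adjusted p under 0.05. The genes that rose included the matrix protein TGFBI, the integrin subunits ITGB6, ITGB3 and ITGAV, the cytokine IL6, the collagens COL5A1 and COL6A3, and the pathway inhibitors SKIL, PMEPA1 and SMAD7. The genes that fell included SPRY1, an inhibitor of growth factor receptor signalling, the prostaglandin-degrading enzyme HPGD, the thromboxane synthase TBXAS1 and the metalloreductase STEAP4. Of the 124 genes whose fold could be measured over background, 45 changed at least 2-fold, 35 higher and 10 lower, while for 16 others there is a bound at most. By type, 122 are protein-coding (78 higher, 44 lower), 10 are pseudogenes, all higher, and 8 are of other kinds. In every one of the 140 the values of the 2 groups did not overlap, which was also so for 48.4% of all genes tested. The median difference was -0.02 over all genes, -0.06 over protein-coding genes and 0.07 over pseudogenes, and the negative control features had medians of 2.70 and 2.81 with calcitriol plus TGF-β1 and of 2.69 and 2.57 with calcitriol. Whether this shift has a part in the pseudogene rises was not tested. Before adjustment 3517 genes (14.7%) had a p under 0.05, where 1192.7 would pass if nothing changed.

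The test was limma's moderated test with 1 mean per group over all 8 arrays, and the count leans on the arrays of every group for its estimate of spread. Without calcitriol plus TGF-β1 replicate A 0 genes passed in limma (2688 at an unadjusted p under 0.05), without its replicate B 4 passed (IL6, SERPINE2, SPRY1 and TGFBI), and without either calcitriol array 1 passed, TGFBI. Without either TGF-β1 array 36 passed, without either untreated array 83 passed, and a fit of the 4 compared arrays alone called 2 genes, TGFBI and ITGB6. The direction of the 59 named genes that changed was the same under all of these settings, but this was fixed in advance. All 59 had groups that do not overlap, so leaving out 1 compared array cannot turn the sign. The other settings leave the difference itself as it was.

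**Figure D1:**
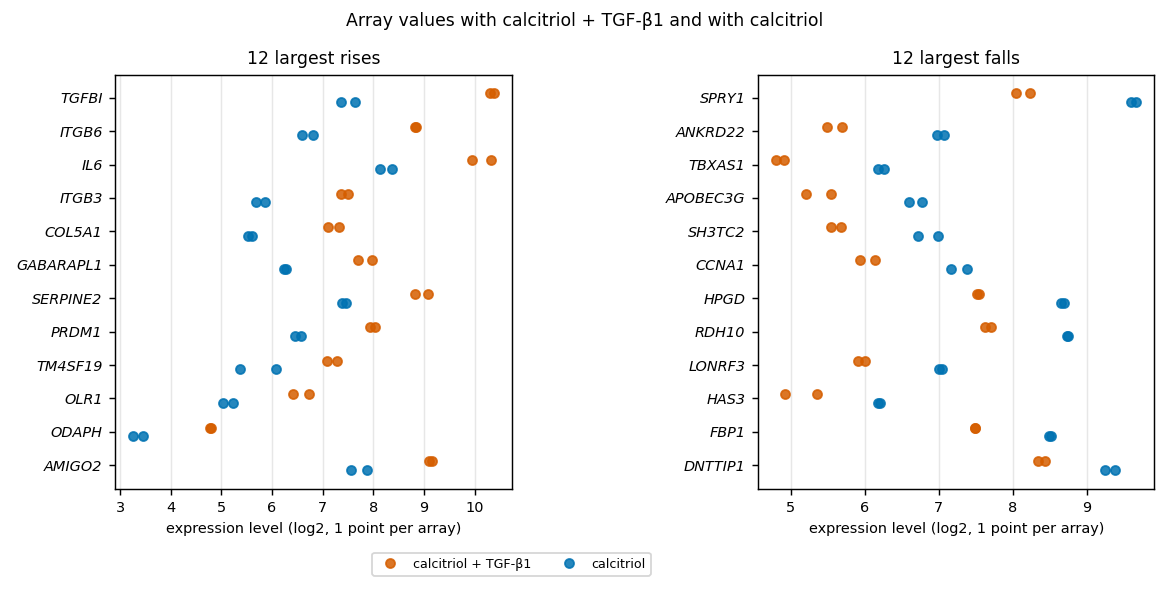
Log2 expression level (x-axis) of the 12 protein-coding genes with the largest rises (left) and the 12 with the largest falls (right), 1 point per array, for calcitriol plus TGF-β1 (orange, upper row of each gene) and calcitriol (blue, lower row). These genes were drawn from changed genes whose groups do not overlap, which was also so for 48.4% of all genes tested. The widest gap is that of TGFBI, at 10.31 to 10.37 against 7.36 to 7.64.

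The largest single change was in TGFBI, a secreted adhesion protein that binds collagens and integrins. It stood at 10.37 and 10.31 with calcitriol plus TGF-β1, against 7.64 and 7.36 with calcitriol. The difference was 2.84 ± 0.14 (log2, SE, n = 2 per group), or 7.17-fold, with an adjusted p = 0.00135. It passed under 15 of 16 alternative settings, the exception being the fit without calcitriol plus TGF-β1 replicate A (adjusted p = 0.0668).

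Genes of the TGF-β ligand and latency machinery moved in part. Of 25 tested members, 3 rose and 1 fell, with a median difference of 0.09. TGFB1, the gene of the ligand itself, stood at 8.15 and 8.25 with calcitriol plus TGF-β1, against 8.14 and 8.11 with calcitriol (0.08 ± 0.10, adjusted p = 0.737). LTBP2, a latent TGF-β binding protein of the matrix, rose by 0.99 ± 0.15 (7.54 and 7.66 against 6.58 and 6.64, adjusted p = 0.0456). ITGB6 and ITGAV encode the 2 subunits of αvβ6, an integrin that releases active TGF-β from its latent complex, and both rose. ITGB6 was at 8.83 and 8.84 with calcitriol plus TGF-β1, against 6.80 and 6.59 with calcitriol (2.14 ± 0.20, 4.40-fold, adjusted p = 0.0115). Its other 2 features lay below background on all 4 arrays, with differences of 0.92 and -0.14. ITGAV was at 9.02 and 9.07, against 8.20 and 8.19 with calcitriol (0.85 ± 0.10, adjusted p = 0.0158). The member that fell was INHBB, a subunit of activin B and inhibin B, at 9.18 and 9.14 with calcitriol plus TGF-β1 and at 9.99 and 10.02 with calcitriol (-0.84 ± 0.10, adjusted p = 0.0165). INHBA, the activin A subunit, did not pass (0.56, adjusted p = 0.0872).

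The receptors and SMADs were largely without calls at the RNA level. Of 14 receptors and co-receptors, BMPR2, the type II receptor for bone morphogenetic proteins, rose, at 9.01 and 9.09 with calcitriol plus TGF-β1 against 8.10 and 8.34 with calcitriol (0.83 ± 0.12, adjusted p = 0.0369). TGFBR1 had a difference of 0.21 (95% interval -0.08 to 0.51, adjusted p = 0.468) and TGFBR2 one of -0.34 (-0.59 to -0.10, adjusted p = 0.225). Neither passed, and the interval of TGFBR2 lies below 0 before adjustment. Of 19 SMADs and SMAD partners, 0 passed in limma, with 3 at an unadjusted p under 0.05, all lower. The share at such a p among all protein-coding genes tested was 15.7%, so these 3 do not stand out. SMAD2 had a difference of -0.13 (-0.40 to 0.14), SMAD3 of 0.03 (-0.23 to 0.30) and SMAD4 of -0.15 (-0.47 to 0.17). Each of these 3 intervals spans 0.

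Feedback inhibitors of the pathway gave 3 rises among 15 tested members, with 0 falls and a median difference of -0.07, which turned to 0.01 after cyclic loess. SKIL encodes SnoN, a co-repressor that binds SMADs, PMEPA1 a membrane protein that keeps SMAD2 and SMAD3 from the receptor, and SMAD7 the inhibitory SMAD. SKIL stood at 9.61 and 9.56 with calcitriol plus TGF-β1, against 8.36 and 8.36 with calcitriol (1.22 ± 0.10, 2.34-fold, adjusted p = 0.0115). PMEPA1 was at 10.52 and 10.59 against 9.25 and 9.36 with calcitriol (1.25 ± 0.12, 2.38-fold, adjusted p = 0.0115). SMAD7 was at 7.44 and 7.67 against 6.64 and 6.78 with calcitriol (0.84 ± 0.13, 1.79-fold, adjusted p = 0.0456), and its second feature differed by 0.76. In all 3 genes both arrays with calcitriol plus TGF-β1 lay above both with calcitriol. Groups did not overlap in any changed gene, nor in 48.4% of all genes tested, so this adds nothing to the calls. SMURF2, a ubiquitin ligase that acts on the receptors, did not pass (0.43, adjusted p = 0.169), nor did SMAD6, the inhibitory SMAD of the bone morphogenetic protein branch (-0.64, adjusted p = 0.284). Of 12 ID genes and other targets of that branch, 0 passed in limma and 4 had an unadjusted p under 0.05 (median -0.09), beside 15.7% of all protein-coding genes tested. ID1 had a difference of -0.40 (adjusted p = 0.276).

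The promoters of a pair of feedback genes that rose and of a pair of genes that fell are shown because SMAD complexes are known to bind CAGAC, the SMAD box. Sequences are from RefSeq (GRCh38.p14), run from 250 bases before to 50 bases after the annotated start, and capitals mark each CAGAC on either strand, so that GTCTG is the same box read from the other strand.
SKIL (chr3:170357465-170357764, plus strand): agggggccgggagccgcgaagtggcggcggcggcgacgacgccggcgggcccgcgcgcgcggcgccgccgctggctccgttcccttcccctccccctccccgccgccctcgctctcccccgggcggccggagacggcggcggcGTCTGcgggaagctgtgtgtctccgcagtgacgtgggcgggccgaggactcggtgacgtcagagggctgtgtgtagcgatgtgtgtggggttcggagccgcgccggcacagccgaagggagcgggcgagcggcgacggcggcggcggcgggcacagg
SMAD7 (chr18:48950916-48951215, minus strand): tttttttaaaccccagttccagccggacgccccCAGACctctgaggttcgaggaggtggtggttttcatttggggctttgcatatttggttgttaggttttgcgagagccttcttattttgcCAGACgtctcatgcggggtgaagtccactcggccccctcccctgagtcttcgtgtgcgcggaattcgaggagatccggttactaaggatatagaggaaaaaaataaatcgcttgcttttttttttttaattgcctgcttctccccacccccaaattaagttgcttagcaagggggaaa
SPRY1 (chr4:123396545-123396844, plus strand): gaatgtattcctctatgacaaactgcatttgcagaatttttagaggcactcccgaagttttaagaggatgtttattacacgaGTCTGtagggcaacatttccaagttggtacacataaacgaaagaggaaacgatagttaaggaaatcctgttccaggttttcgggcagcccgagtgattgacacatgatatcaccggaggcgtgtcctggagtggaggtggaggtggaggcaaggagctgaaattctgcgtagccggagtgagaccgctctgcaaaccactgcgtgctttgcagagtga
HPGD (chr4:174522439-174522738, minus strand): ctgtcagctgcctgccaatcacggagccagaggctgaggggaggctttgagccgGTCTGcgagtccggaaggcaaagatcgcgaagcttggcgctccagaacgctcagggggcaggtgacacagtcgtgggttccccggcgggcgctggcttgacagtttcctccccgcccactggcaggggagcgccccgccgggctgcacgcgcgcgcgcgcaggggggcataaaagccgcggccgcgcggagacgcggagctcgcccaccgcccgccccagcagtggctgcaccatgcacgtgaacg
SKIL holds 1 box, which begins 107 bases before the start, and SMAD7 holds 2, which begin 217 and 128 bases before it. SPRY1 and HPGD, which fell, hold 1 each, 168 and 196 bases before the start. The promoters shown all hold the box, but PMEPA1, the other feedback gene that rose, holds 0. So do TGFBI and ITGB6, which rose, and SH3TC2 and CCNA1, which fell. The box was thus found in some rising and some falling genes and was missing from others. Among protein-coding genes with a promoter in the table, it was present in 48.3% of the 60 that rose and 50% of the 34 that fell, beside 43.9% of the 12034 tested and 45.0% of all 27305 promoters. Its palindrome GTCTAGAC was in 0 of the rising and 0 of the falling genes and in 0.166% of those tested. TGANTCA, the AP-1 site, was in 10.0% of the rising and 5.88% of the falling genes, beside 5.15% of those tested and 7.76% of all promoters. These matches describe the letters in the window and say nothing of binding.

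The list of TGF-β and SMAD targets held calls in 1 direction. Of 43 genes on the list, 38 were tested, 17 rose, 0 fell and 21 did not pass, and the median difference of the 38 was 0.61, beside -0.02 over all genes. The list was drawn up with results of this series known and is no independent evidence of its direction. SGK1, a kinase that controls ion transport and survival, was at 7.84 and 7.56 with calcitriol plus TGF-β1 against 6.60 and 6.21 with calcitriol (1.30 ± 0.20, 2.46-fold, adjusted p = 0.0462). AMIGO2, a cell adhesion protein, was at 9.15 and 9.10 against 7.87 and 7.57 with calcitriol (1.41 ± 0.13, 2.65-fold, adjusted p = 0.0115). Members that did not pass include JUNB, a transcription factor (0.52, adjusted p = 0.137), SNAI2 (0.43, adjusted p = 0.135) and CCN2, connective tissue growth factor (0.40, adjusted p = 0.251).

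**Figure D2:**
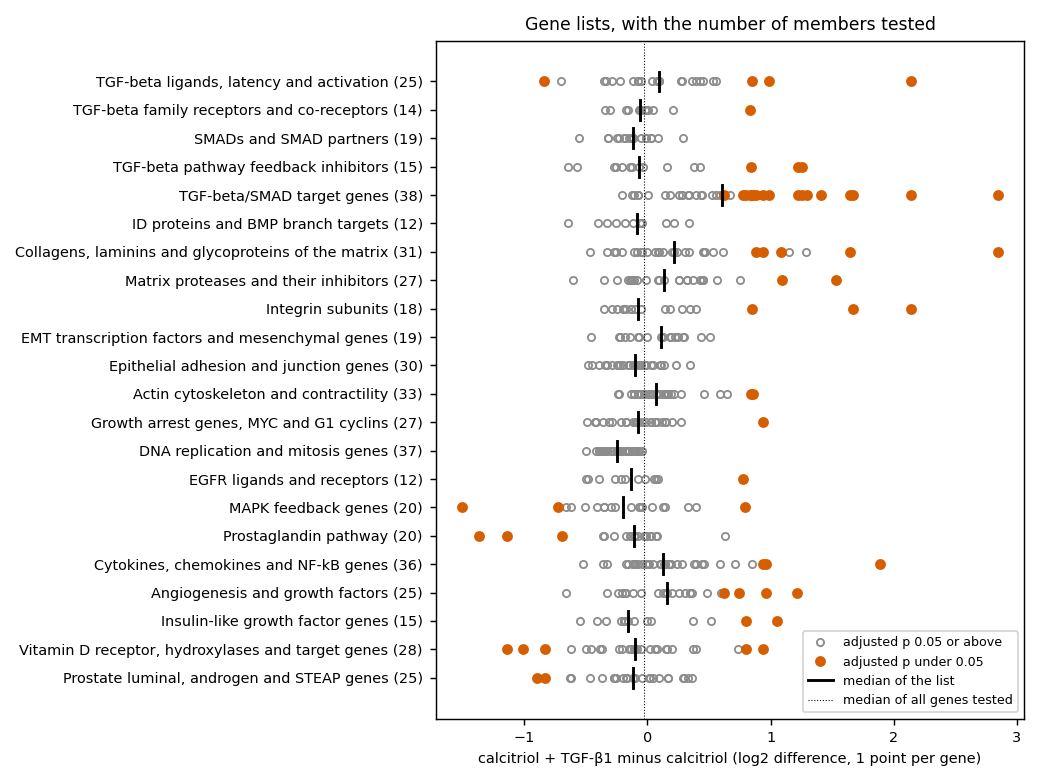
Difference between calcitriol plus TGF-β1 and calcitriol (log2, x-axis) for each tested member of 22 gene lists (rows, with the number tested). Filled points passed at an adjusted p under 0.05, open points did not, thick bars are list medians and the dotted line is the median of all genes, -0.02. The target list has its median at 0.61 and 17 filled points, all to the right, while all 37 replication and mitosis genes lie left of 0 with 0 filled points.

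Matrix genes rose in part. Of 31 collagens and matrix glycoproteins tested, 5 rose and 0 fell, with a median of 0.21. COL5A1, a fibrillar collagen chain, stood at 7.10 and 7.32 with calcitriol plus TGF-β1, against 5.60 and 5.53 with calcitriol (1.65 ± 0.14, 3.13-fold, adjusted p = 0.0115). COL6A3, a chain of the microfibrillar collagen VI, was at 8.74 and 8.82 against 7.85 and 7.84 with calcitriol (0.94 ± 0.10, adjusted p = 0.0123). FN1, fibronectin, was at 10.28 and 10.22 against 9.52 and 9.22 with calcitriol (0.88 ± 0.12, adjusted p = 0.035), and SPOCK1, a matrix proteoglycan, rose by 1.09 ± 0.15 (adjusted p = 0.0322). TGFBI is the fifth member. COL4A1 (1.29, adjusted p = 0.0683) and VCAN (1.15, adjusted p = 0.0556) lay above both calcitriol arrays on both arrays and did not pass. Groups without overlap were found in 48.4% of all genes tested.

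Among 27 proteases and their inhibitors, 2 rose and 0 fell. SERPINE2, a secreted inhibitor of thrombin and urokinase, stood at 9.08 and 8.82 with calcitriol plus TGF-β1 and at 7.46 and 7.37 with calcitriol (1.53 ± 0.12, 2.90-fold, adjusted p = 0.0115). ADAMTS6, a secreted metalloprotease, rose by 1.09 ± 0.15 (adjusted p = 0.035). The urokinase gene PLAU (0.45, adjusted p = 0.114) and the interstitial collagenase MMP1 (-0.60, adjusted p = 0.125) did not pass.

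Of 18 integrin subunits, ITGB6, ITGB3 and ITGAV rose and 0 fell. ITGB3, which pairs with ITGAV in the vitronectin receptor, was at 7.36 and 7.50 with calcitriol plus TGF-β1, against 5.85 and 5.67 with calcitriol (1.67 ± 0.19, 3.17-fold, adjusted p = 0.0159). The list's median was -0.07, so most subunits did not share the rise: ITGB1, the common partner of many chains, had a difference of 0.34 (adjusted p = 0.188) and ITGA5 one of 0.18 (adjusted p = 0.413).

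The lists of epithelial adhesion genes and of mesenchymal genes gave 0 calls in limma. Of 30 epithelial adhesion genes (median -0.10) 6 had an unadjusted p under 0.05, as had 3 of 19 mesenchymal genes and transcription factors of epithelial-mesenchymal transition (median 0.11). The share among all protein-coding genes tested was 15.7%. E-cadherin, CDH1, stood at 9.41 and 9.02 with calcitriol plus TGF-β1 and at 9.28 and 9.36 with calcitriol (-0.10, 95% interval -0.43 to 0.23, adjusted p = 0.782). Its groups overlapped. Vimentin, VIM, was at 9.95 and 10.11 against 9.90 and 9.91 with calcitriol (0.13, -0.12 to 0.37, adjusted p = 0.611). N-cadherin, CDH2, did not pass (0.51, adjusted p = 0.114). Outside these 2 lists, and named after its values were seen, the cadherin CDH6 rose (1.29 ± 0.18, adjusted p = 0.0328). The cadherin CDH7 (-0.725 ± 0.11, adjusted p = 0.0475) and the syndecan SDC1 (-0.79 ± 0.10, adjusted p = 0.0245), named in the same way, fell. FN1, described with the matrix genes, rose. Of 11 keratins, KRT34, a hair-type keratin, rose, at 9.59 and 9.37 against 8.47 and 8.30 with calcitriol (1.10 ± 0.14, 2.14-fold, adjusted p = 0.0228). Outside the list KRT83, another hair keratin, named after its values were seen, rose by 0.75 ± 0.10 (adjusted p = 0.0344). KRT7 missed the threshold (0.62, adjusted p = 0.0556). Of 33 actin and contractility genes, 2 rose, the smooth muscle type genes TAGLN (0.86 ± 0.14, adjusted p = 0.0483) and TPM1 (0.84 ± 0.10, adjusted p = 0.0167).

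In the growth arrest list, CDKN1A, the cyclin-dependent kinase inhibitor p21, rose as the one call among 27 members. It was at 7.73 and 8.00 with calcitriol plus TGF-β1, against 6.88 and 6.96 with calcitriol (0.94 ± 0.14, 1.92-fold, adjusted p = 0.0381). CDKN2B, p15 (0.14, adjusted p = 0.609), and MYC (-0.49 ± 0.12, 95% interval -0.76 to -0.22, adjusted p = 0.148) did not pass. All 37 DNA replication and mitosis genes had a difference below 0, from -0.50 to -0.05 with a median of -0.24, and 0 of them passed in limma, with 17 at an unadjusted p under 0.05. Among all protein-coding genes tested, 62.2% had a difference below 0 and 15.7% an unadjusted p under 0.05. The median of the 37 replication and mitosis genes was -0.17 after cyclic loess over protein-coding genes and -0.21 after centring each array on its protein-coding median. CCNA1, the germline-type cyclin A, is not on the list and fell, at 5.93 and 6.14 with calcitriol plus TGF-β1 against 7.38 and 7.16 with calcitriol (-1.24 ± 0.12, 2.35-fold lower, adjusted p = 0.0115).

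Growth factor signalling genes moved in opposite directions. SPRY1, a Sprouty protein that dampens receptor tyrosine kinase signalling to MAPK, had the largest fall of all genes. It stood at 8.05 and 8.23 with calcitriol plus TGF-β1, against 9.60 and 9.67 with calcitriol (-1.50 ± 0.10, 2.83-fold lower, adjusted p = 0.00969). Of 20 MAPK feedback genes, SPRY1 and the phosphatase DUSP5 (-0.72 ± 0.12, adjusted p = 0.0497) fell, while the phosphatase DUSP1 rose (0.79 ± 0.13, adjusted p = 0.0495). The other Sprouty genes SPRY2 (-0.41, adjusted p = 0.4) and SPRY4 (-0.66, adjusted p = 0.237) did not pass. HBEGF, a ligand of the EGF receptor, was at 7.82 and 7.90 against 7.08 and 7.10 with calcitriol (0.78 ± 0.11, adjusted p = 0.035) and was the one call among 12 EGF receptors and ligands. Among 17 AP-1 and immediate early genes JUN rose (0.68 ± 0.10, adjusted p = 0.0475), and FOSL1 missed the threshold in the other direction (-0.58, adjusted p = 0.0523).

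The prostaglandin list had 3 falls and 0 rises among 20 members, with a median of -0.11. HPGD, which oxidises and so inactivates prostaglandins, stood at 7.55 and 7.52 with calcitriol plus TGF-β1, against 8.66 and 8.70 with calcitriol (-1.14 ± 0.10, 2.20-fold lower, adjusted p = 0.0115). TBXAS1, which makes thromboxane, was at 4.90 and 4.80 against 6.17 and 6.26 with calcitriol (adjusted p = 0.0115), and 1 of its 2 lower arrays lay at background, so no fold is given. PTGFR, the receptor of prostaglandin F, fell by 0.69 (adjusted p = 0.0477). The inducible cyclooxygenase PTGS2 was at 9.32 and 9.42 with calcitriol plus TGF-β1 and at 8.74 and 8.73 with calcitriol, and its difference of 0.63 did not pass (adjusted p = 0.135).

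Of 36 cytokine, chemokine and NF-κB genes, 3 rose and 0 fell. IL6, a cytokine that acts through STAT3, stood at 10.32 and 9.94 with calcitriol plus TGF-β1, against 8.36 and 8.12 with calcitriol (1.89 ± 0.15, 3.71-fold, adjusted p = 0.0115). CSF1, the growth factor of macrophages, was at 8.01 and 7.87 against 7.05 and 6.91 with calcitriol (0.96 ± 0.11, adjusted p = 0.0158), and IL1B at 10.29 and 10.38 against 9.40 and 9.40 with calcitriol (0.94 ± 0.10, adjusted p = 0.0123). The chemokine CXCL8 did not follow (-0.01, adjusted p = 0.972), and of the NF-κB subunits and inhibitors on the list 0 passed.

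Secreted growth and guidance factors gave 4 rises and 0 falls among 25 angiogenesis genes. EDN1, the vasoconstrictor endothelin, rose by 1.21 ± 0.18 (7.65 and 8.10 against 6.85 and 6.47 with calcitriol, adjusted p = 0.0456). FGF5, a fibroblast growth factor, rose by 0.96 ± 0.14 (adjusted p = 0.0369), the semaphorin SEMA3C by 0.74 ± 0.10 (adjusted p = 0.035) and VEGFA by 0.62 ± 0.10 (adjusted p = 0.0497). Another semaphorin, SEMA3A, had a difference of -0.66 that missed the threshold (adjusted p = 0.051). Of 15 insulin-like growth factor genes, the receptor IGF1R rose, at 8.90 and 8.95 with calcitriol plus TGF-β1 against 7.88 and 7.87 with calcitriol (1.05 ± 0.10, 2.07-fold, adjusted p = 0.0115). The binding protein IGFBP3, which carries the factors and is itself a target of both agents, rose to 12.42 and 12.22 with calcitriol plus TGF-β1, against 11.51 and 11.52 with calcitriol (0.80 ± 0.11, 1.74-fold, adjusted p = 0.0331).

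Genes of the vitamin D system gave 2 rises and 3 falls among 28 members, and the receptor was not among them. VDR stood at 9.11 and 9.23 with calcitriol plus TGF-β1 and at 9.22 and 9.22 with calcitriol (-0.06, 95% interval -0.29 to 0.18, adjusted p = 0.834), and its partner RXRA differed by -0.09 (adjusted p = 0.763). CYP24A1, the calcitriol-degrading enzyme and main target of VDR, was at 10.92 and 9.71 with calcitriol plus TGF-β1, against 9.94 and 9.96 with calcitriol. The array of replicate A lay above and that of replicate B below both calcitriol arrays, and the difference of 0.37 ± 0.35 (95% interval -0.45 to 1.19) did not pass (adjusted p = 0.664). The rises were IGFBP3 and CDKN1A, and the falls were HPGD, FBP1 and STEAP4, so the 5 calls are genes already described or named next. FBP1, a gluconeogenic enzyme, was at 7.50 and 7.49 against 8.52 and 8.49 with calcitriol (-1.01 ± 0.10, 2.02-fold lower, adjusted p = 0.0115).

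Among 25 prostate luminal and androgen-linked genes, 2 fell and 0 rose. STEAP4, a metalloreductase of iron and copper, stood at 8.27 and 8.28 with calcitriol plus TGF-β1, against 9.15 and 9.07 with calcitriol (-0.83 ± 0.10, 1.78-fold lower, adjusted p = 0.0165). STS, which frees steroids from their sulphates, was at 7.52 and 7.34 against 8.36 and 8.29 with calcitriol (-0.90 ± 0.11, adjusted p = 0.0204). HOXB13, a homeobox factor of the prostate, missed the threshold (-0.63, adjusted p = 0.065).

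Single members of further lists changed. SLC7A11, the cystine transporter, fell by 0.70 (adjusted p = 0.0439) as the one call among 20 NRF2-linked genes, and NDRG1, a stress-responsive gene, fell by 0.83 (adjusted p = 0.0328) as the one call among 22 hypoxia and glycolysis genes. APOBEC3G, a cytidine deaminase with close paralogs, was at 5.54 and 5.20 with calcitriol plus TGF-β1 against 6.77 and 6.60 with calcitriol (-1.31 ± 0.15, 2.48-fold lower, adjusted p = 0.0158). It was the one call among 26 interferon and antigen presentation genes, whose median was -0.11. Outside the list its paralog APOBEC3C, named after its values were seen, also fell (-0.62, adjusted p = 0.0456). APOBEC3C was far brighter, at 10.98 and 10.93 against 11.63 and 11.53 with calcitriol. Whether the APOBEC3G feature also reads APOBEC3C was not tested. Of 31 Wnt, Notch and Hippo genes, ANKRD1, a nuclear protein of stretched muscle and a YAP target, rose (1.18 ± 0.18, adjusted p = 0.0475) and WWTR1, which encodes the Hippo effector TAZ, fell by 0.69 (adjusted p = 0.0475). In limma 0 genes passed among 19 cholesterol and fatty acid genes, 20 amino acid and unfolded protein stress genes, 17 ribosomal protein genes (2 in each list at an unadjusted p under 0.05), 21 apoptosis regulators (6) and 12 housekeeping genes (3). In the serpin clade B list 0 of 6 tested genes passed, with 4 at an unadjusted p under 0.05. Beside all these lists, 15.7% of all protein-coding genes tested had such a p. SERPINB4 differed by -1.31 (adjusted p = 0.0673) and SERPINB3 by -0.92 (adjusted p = 0.19), and these are near-identical copies.

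Several of the largest changes lie outside these lists. GABARAPL1, a protein of autophagosome formation, stood at 7.70 and 7.97 with calcitriol plus TGF-β1, against 6.28 and 6.23 with calcitriol (1.58 ± 0.15, 2.98-fold, adjusted p = 0.0115). PRDM1, the transcriptional repressor BLIMP1, was at 7.93 and 8.04 against 6.58 and 6.45 with calcitriol (1.47 ± 0.17, 2.77-fold, adjusted p = 0.0158). OLR1, a receptor for oxidised lipoprotein, rose by 1.46 ± 0.18 (adjusted p = 0.0192), and the tetraspanin-like TM4SF19 by 1.47 ± 0.22 (adjusted p = 0.0439). ODAPH was at background on both calcitriol arrays and above it on 1 array with calcitriol plus TGF-β1, which gives at least 1.10-fold (adjusted p = 0.0123). Without its arrays with calcitriol plus TGF-β1 it would not have passed the filter on low values. The filter thus favoured a rise of ODAPH, and this rise is no independent evidence. On the falling side RDH10, a retinol dehydrogenase of retinoic acid synthesis, was at 7.63 and 7.70 against 8.74 and 8.76 with calcitriol (-1.08 ± 0.10, 2.12-fold lower, adjusted p = 0.0115). HAS3, a hyaluronan synthase, was at 5.36 and 4.92 against 6.18 and 6.21 with calcitriol (-1.05 ± 0.14, adjusted p = 0.0328). ANKRD22 (-1.44 ± 0.15), SH3TC2 (-1.24 ± 0.13), LONRF3 (-1.07 ± 0.11) and DNTTIP1 (-0.92 ± 0.10) complete the 12 largest falls among protein-coding genes, with adjusted p-values of 0.0146, 0.0123, 0.0148 and 0.0158 in that order.

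The same agent was also measured without calcitriol, on arrays that this comparison does not use, although the fit shares 1 estimate of spread. TGF-β1 against untreated cells changed 145 genes (0.608%), with groups that did not overlap in 43.2% of all genes. Both comparisons called 89 genes, all in the same direction (57 higher, 32 lower), which is 63.6% of the 140 and 61.4% of the 145. Of the 140 genes, 134 had the same sign without calcitriol and 6 the opposite one. The 94 rising genes had a median difference of 0.96 in the presence of calcitriol and 0.85 in its absence, and the 46 falling genes medians of -0.83 and -0.75. Seen from the other side, the genes called higher by TGF-β1 alone had a median of 0.93 in the presence of calcitriol and 0.97 without it, and those called lower medians of -0.71 and -0.85. Over all genes the 2 differences correlated at r = 0.459, a description across genes, which are not independent.

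**Figure D3:**
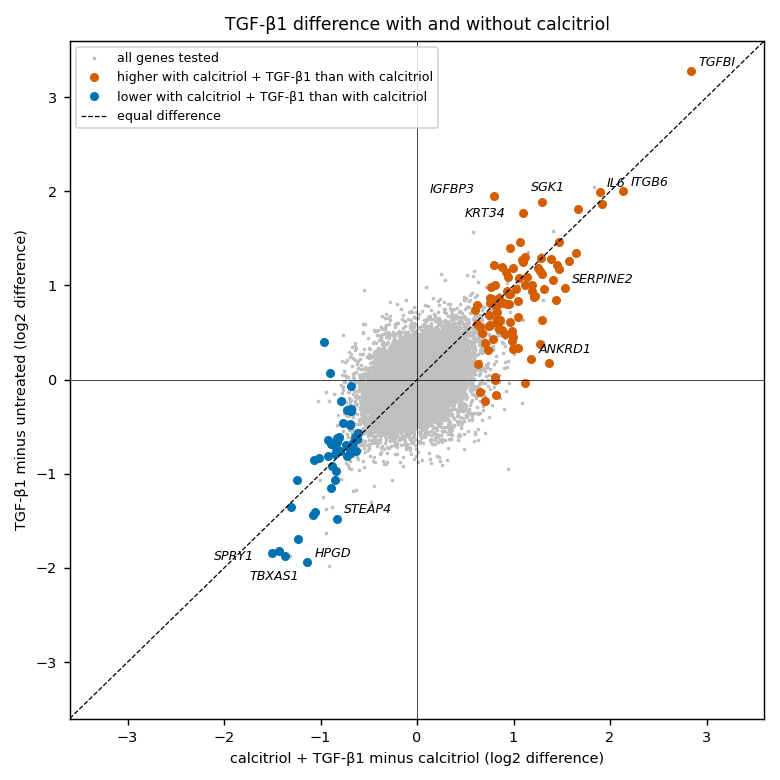
Difference between calcitriol plus TGF-β1 and calcitriol (x-axis) against the difference between TGF-β1 and untreated cells (y-axis), in log2 units, 1 point per gene. Genes changed in the first comparison are orange (94 higher) or blue (46 lower), and grey points are all genes tested. The dashed line marks equal differences: IGFBP3, KRT34 and SGK1 lie above it among the rising genes, and ANKRD1 and SERPINE2 below it.

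Whether the size of the TGF-β1 effect differs with calcitriol was tested as an interaction, the difference between the 2 differences, and 0 of 23854 genes passed in limma (lowest adjusted p = 0.385, with 1229 genes at an unadjusted p under 0.05). So none of the 51 genes called with calcitriol and not without it, nor the 56 called the other way round, is shown to differ between the settings. With an intensity trend in the prior, limma called 1 gene, IGFBP3 (-1.15, adjusted p = 9.24e-06, against 0.552 without the trend). IGFBP3 stood at 12.42 and 12.22 with calcitriol plus TGF-β1, at 11.51 and 11.52 with calcitriol, at 11.76 and 11.88 with TGF-β1 and at 9.84 and 9.92 in untreated cells. TGF-β1 thus raised it by 0.80 in the presence of calcitriol and by 1.95 in its absence (interaction -1.15 ± 0.16, 95% interval -1.51 to -0.78).

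Some estimates differed between the settings without passing as an interaction. HPGD fell by 1.14 with calcitriol, against 1.94 without it (interaction 0.80, adjusted p = 0.679), and STEAP4 fell by 0.83, against 1.48 (0.65, adjusted p = 0.769). For HPGD the arrays with TGF-β1 were at 7.55 and 7.52 in the presence of calcitriol and at 7.08 and 6.95 in its absence. KRT34 rose by 1.10 with calcitriol and by 1.77 without it (-0.67, adjusted p = 0.954). Its levels were 9.59 and 9.37 with calcitriol plus TGF-β1 and 8.47 and 8.30 with calcitriol, beside 8.84 and 8.99 with TGF-β1 and 7.03 and 7.28 in untreated cells. ANKRD1 went the other way, with 1.18 in the presence of calcitriol and 0.22 in its absence (0.96, adjusted p = 0.953). Its levels were 7.18 and 7.76 with calcitriol plus TGF-β1 and 6.20 and 6.38 with calcitriol, beside 7.40 and 7.26 with TGF-β1 and 7.06 and 7.16 in untreated cells, so the calcitriol arrays were the low ones. Other genes had close estimates in both settings. IL6 differed by 1.89 with calcitriol and 1.99 without it (95% interval of the interaction -0.58 to 0.39), ITGB6 by 2.14 and 2.00 (-0.53 to 0.80), and SMAD7 by 0.84 and 0.81 (-0.39 to 0.45). These intervals show the precision that 2 arrays per group allow. They are per gene and not adjusted for the number of genes tested. They hold the differences that the values leave possible and are no limit of detection.

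**Figure D4:**
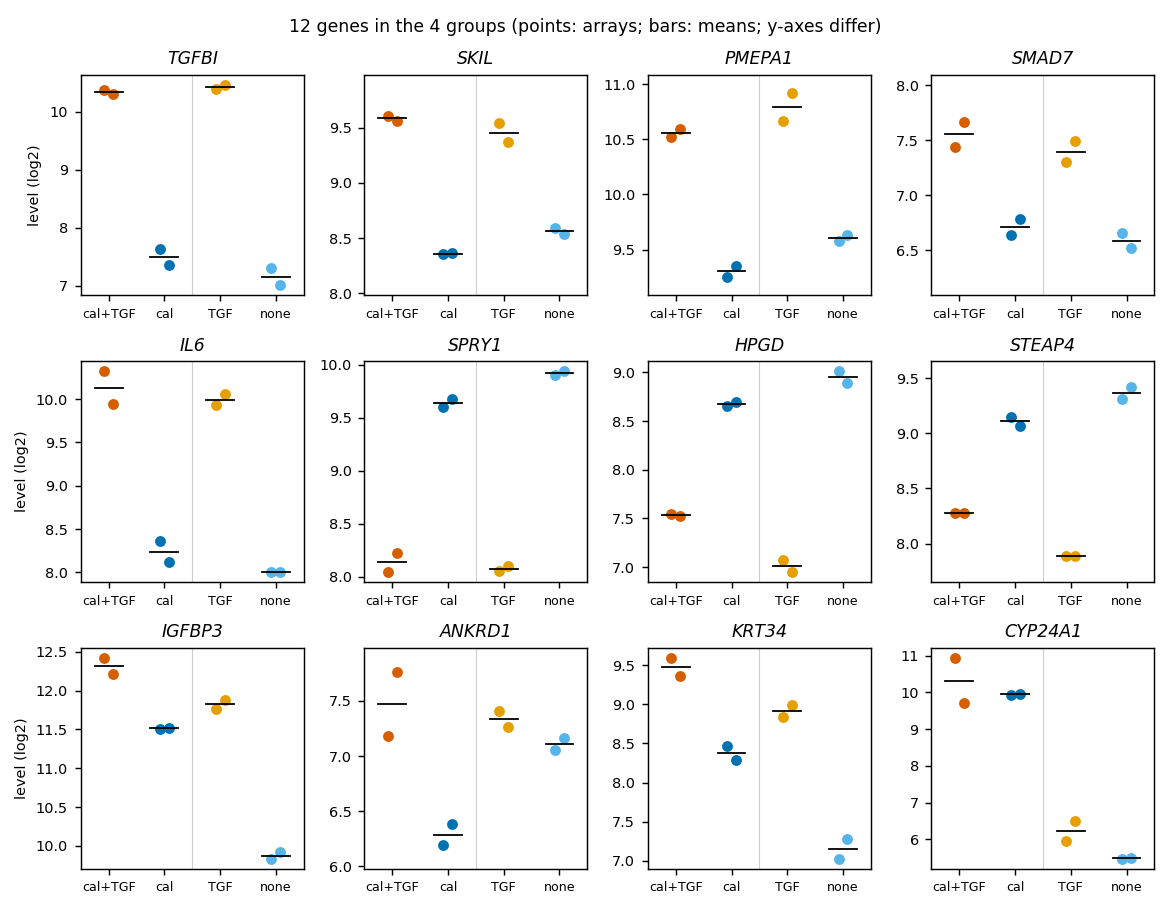
Log2 level (y-axis, scales differ) of 12 genes in calcitriol plus TGF-β1, calcitriol, TGF-β1 and untreated cells, from left to right. Points are arrays and bars are group means. TGFBI, SKIL, PMEPA1, SMAD7, IL6 and SPRY1 step the same way in the left and in the right pair, IGFBP3 and KRT34 a smaller step in the left pair, and CYP24A1 is high in the left pair and low in the right, with 1 calcitriol plus TGF-β1 array at 10.92 and the other at 9.71.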

How the data were processed

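Total RNA of PC-3 cells was measured on Clariom D arrays, 2 per group. The deposited values are log2 expression levels, and per the submitters' processing notes RMA, oligo and limma were used (versions and genome build not given in the sources used here). The base of the logarithm is taken as 2 from RMA, whose output it is. Gene symbols came from the platform annotation: 36176 features have 1 symbol, 1119 have several and 98455 are not listed. A feature with 1 symbol entered the fit if 2 or more arrays exceeded 4.34, the deposited values' 50th percentile, and each gene was read from its brightest feature. Array-specific background is the 95th percentile of 612 negative control features. Precision is limited by the number of arrays.

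The test was limma 3.58.1 (R 4.3.3) on all 8 arrays with 1 mean per group, two-sided, with Benjamini-Hochberg adjustment over 23854 genes, a threshold of 0.05 and 4 residual plus 3.68 prior degrees of freedom. It was tested on simulated data with independent noise of the spread that limma itself estimated. No array effects were simulated, so that run cannot speak to them. An exact permutation of 2 against 2 arrays cannot go below p = 0.333. A gene at background in 1 group has only a bound ("at least"), computed against that background. Named genes are the 12 largest rises and 12 largest falls among changed protein-coding genes whose groups did not overlap, up to 6 such genes of each of 40 lists, and 17 fixed genes. The comparison, lists and rule were chosen with earlier results of these data known. List medians and counts are descriptions. Replicate letters did not pair the arrays: same-letter deviations correlated between -0.084 and 0.081. Alternatives were other filters, scalings, priors and a replicate block, and leaving out each array.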

Additional observations from a re-analysis of the deposited data

How the results depend on the processing

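The count of 140 changed genes stayed within 1.5 times under a stricter filter, each feature on its own, protein-coding genes only, cyclic loess and protein-coding median centring. It was 56 with no filter on low values, 2 with only the 4 arrays compared, 976 with an intensity trend in the prior (413 higher, 563 lower) and 66 with the replicate block. Leaving out each array in turn gave 0 to 83. For TGF-β1 against untreated cells the 145 genes became 38 with no filter, 242 with protein-coding genes only, 271 with cyclic loess, 719 with the intensity trend and 43 with the replicate block, and leaving out each array gave 12 to 48. The interaction stayed at 0 in limma except with the intensity trend, which gave 1. Of the 59 named genes that changed, 59 passed under cyclic loess, the intensity trend and protein-coding genes only. Under centring 56 passed, with the replicate block 34 and with no filter 32. None of them changed direction in these settings or, for the 58 tested there, under the stricter filter. With only the 4 arrays compared or without any 1 array, the direction was fixed in advance, since the groups of these genes do not overlap. The causes of the differing counts were not tested. Leaving out an array of either compared group leaves that group with 1 array, which is then assumed to vary like the others.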

Other observations

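Beyond the named genes, the 140 changed genes hold a family and several non-coding genes, all chosen after their values were seen. The chorionic gonadotropin beta genes CGB1, CGB2, CGB7 and CGB8, which encode the hormone-specific subunit of placental gonadotropin, all rose. CGB8 stood at 7.75 and 7.84 with calcitriol plus TGF-β1, against 6.25 and 6.57 with calcitriol (1.38 ± 0.13, adjusted p = 0.0115). CGB1 rose by 1.28, CGB2 by 1.14 and CGB7 by 0.88. These genes are near-identical copies on chromosome 19, so their features may read the same transcripts and the 4 rises are not separate evidence. NKILA, a long non-coding RNA known to restrain NF-κB, was at 6.86 and 7.20 with calcitriol plus TGF-β1, against 5.58 and 4.65 with calcitriol (1.91 ± 0.28, 3.77-fold, adjusted p = 0.0381). Its 2 calcitriol arrays lay far apart, and it passed in 3 of 16 alternative settings.

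The features of 2 microRNA genes also rose, and their mature sequences are shown with the seed, bases 2 to 8, in capitals (RefSeq, GRCh38.p14). The seeds differ.
hsa-miR-1284 (chr3:71542039-71542060, minus strand): uCUAUACAgacccuggcuuuuc
hsa-miR-8066 (chr4:101240805-101240825, minus strand): cAAUGUGAucuuuuggaugua
The array feature reads the gene and not the mature strand. MIR1284 was at 5.01 and 5.02 with calcitriol plus TGF-β1 and at 3.87 and 3.43 with calcitriol, where both arrays lay at background, which gives at least 1.29-fold (adjusted p = 0.0158). MIR1284 passed the filter on low values only through its arrays with calcitriol plus TGF-β1. The filter thus favoured a rise there, and the rise is no independent evidence. MIR8066 was at 5.84 and 6.07 against 4.76 and 4.59 with calcitriol (adjusted p = 0.0115), with 1 of the 2 calcitriol arrays at background, so no fold is given. Their genes lie within the spans of FOXP1 and PPP3CA, whose own differences were 0.31 (adjusted p = 0.268) and 0.11 (adjusted p = 0.726). The 6 changed genes with the opposite sign in TGF-β1 against untreated cells were LINC00592, GPR78, GREP1, RNU6-1289P, RNU6-1237P and HINT1P2. In 4 of them, LINC00592, RNU6-1289P, RNU6-1237P and HINT1P2, both calcitriol groups lay at background. RNU6-1289P and RNU6-1237P passed the filter on low values only through their arrays with calcitriol plus TGF-β1. LINC00592, which fell, would not have passed it without its arrays with calcitriol alone, where it was higher. For these genes the filter favoured the difference seen. None of the 6 passed in TGF-β1 against untreated cells or as an interaction.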
